A study of Mus musculus with 12 samples.

Results

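The nuclear genes of respiratory chain complexes I, III and IV and of ATP synthase (complex V) were followed in whole mouse hearts after acute myocardial infarction (AMI). Members were the genes whose symbol starts with Nduf followed by a, b, c, s or v and a digit, with Uqcr, with Cox followed by a digit from 4 to 8, or with Atp5. The patterns matched 86 of the 53801 genes in the count table, and 7 pseudogenes were left out, which left 79 members. Of these, 35 belong to complex I, 8 to complex III, 20 to complex IV and 16 to complex V. Ndufa4, first described as a complex I protein and now known as a complex IV subunit, its relative Ndufa4l2, and Cox7a2l, a factor of supercomplex assembly, were counted with complex IV. The patterns do not reach the complex III subunit Cyc1, which is given with the other genes of the pathway.

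Complex I oxidizes NADH and passes its electrons to ubiquinone, complex III moves them on to cytochrome c, and complex IV hands them to oxygen. The proton gradient that these complexes build drives ATP synthase, whose F1 head makes ATP as its membrane c ring turns. Most subunits are nuclear genes, a few are encoded in the mitochondrial genome, and heart muscle, with its constant demand for ATP, uses muscle isoforms of several complex IV subunits.

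RNA came from hearts of male C57BL/6N mice aged 10 to 14 weeks, with 4 hearts in each of 3 groups and 1 library for each heart. In the groups day 1 AMI and day 7 AMI (day 1 and day 7 for short), hearts were taken 1 and 7 days after a permanent ligation of the left coronary artery (LAD in the labels). Sham hearts came from operated mice without infarction, and the sources used here do not tie them to 1 day of harvest. Whole hearts were extracted, so infarcted and surviving muscle and infiltrating cells were mixed.

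Libraries held between 23204551 and 32166517 counts. Genes of the mitochondrial genome took 17.9% to 27.4% of the counts in sham, 12.1% to 15.9% on day 1 and 13.2% to 19.2% on day 7. The TMM factors, by which edgeR scales libraries for such shifts in composition, ran from 0.781 to 0.917, from 1.01 to 1.06 and from 1.10 to 1.17 in the 3 groups. Levels are given as CPM, the counts of a gene scaled to a common library size with these factors. Where genes are compared with one another they are given as the deposited TPM, a measure per transcript length. Sham replicate 1 and day 7 AMI replicate 2 stood apart in base composition, where the genes richest in GC lay 0.30 below the poorest on the log2 scale, against differences between -0.064 and 0.21 in the other libraries. Sham replicate 1 was the lowest sham heart for 54 of the 77 members tested. The 11 cardiomyocyte markers were expressed in every group.

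The members as a set held a large share of the TPM of the heart, although single members differed widely in level. Together they took 11.99% ± 1.68 (SD, n = 4) of the TPM in sham, 11.2% ± 0.816 on day 1 and 7.68% ± 0.559 on day 7. Of the TPM outside the mitochondrial genome, they took 16.4% ± 1.09, 13.9% ± 0.675 and 9.95% ± 0.451. Every day 7 heart lay below every heart of the other groups on both measures. The highest mean TPM in sham was that of Atp5b, the catalytic beta subunit of ATP synthase, at 12067 TPM. The muscle isoforms Cox8b, Cox7a1 and Cox6a2 followed at 5922, 4841 and 4429.8 TPM, ahead of Atp5g1 at 4397 TPM. The lowest mean TPM among members that passed the filter on low counts were Ndufa4l2 at 29.5 TPM, Atp5s at 26.4 TPM, Cox4i2 at 20.3 TPM and Cox6b2 at 6.96 TPM. Cox8c, a testis isoform, had 0 counts in every library, and a floor of 3 counts allows up to 0.129 CPM. Cox7b2, another testis isoform, had between 0 and 2 counts. These 2 members did not pass the filter, and the other 77 were tested. An order of genes depends on the unit, since Atp5b stood 3.77 times above Atp5a1, the alpha subunit, in TPM and 1.15 times above it in CPM.

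Under TMM most members fell by day 1 and fell further by day 7. Relative to the summed cardiomyocyte markers, where Myh6 weighed most, their median on day 1 had the opposite sign. Calls rest on the quasi-likelihood test of edgeR at an adjusted p (FDR, Benjamini-Hochberg over 15306 genes) under 0.05. In day 1 AMI against sham, 57 of 77 members were lower and 1 was higher, where 19.9% of all genes were called lower and 22.0% higher. In day 7 AMI against sham, 74 were lower and 1 was higher, against 28.4% and 30.9% of all genes. In day 7 AMI against day 1 AMI, 69 were lower and 1 was higher, against 22.8% and 24.2%. The largest fall by day 1 was -0.73 on the log2 scale. A fall of 2-fold or more that passed was reached by 0, 51 and 12 members in the 3 comparisons, beside 2.98%, 5.88% and 2.69% of all genes. The largest rise of any member was 0.70 on the log2 scale, so none reached 2-fold, beside 7.79%, 15.3% and 8.55% of all genes. All 4 hearts lay below all 4 of the earlier group for 41, 71 and 68 members, beside 17.1%, 24.7% and 20.9% of all genes. The comparisons share groups, so their counts are not independent of one another.

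The median log2 fold change of the members was -0.41 on day 1 against sham, -1.08 on day 7 against sham and -0.65 on day 7 against day 1 AMI. The median over all genes tested was -0.012, 0.026 and 0.021. Mean CPM stepped down from sham to day 1 AMI to day 7 AMI for 74 of the 77 members (96.1%) and for 24.7% of all genes tested. Without the 2 libraries that stood apart, 67, 74 and 69 members were lower in the 3 comparisons.

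**Figure D1:**
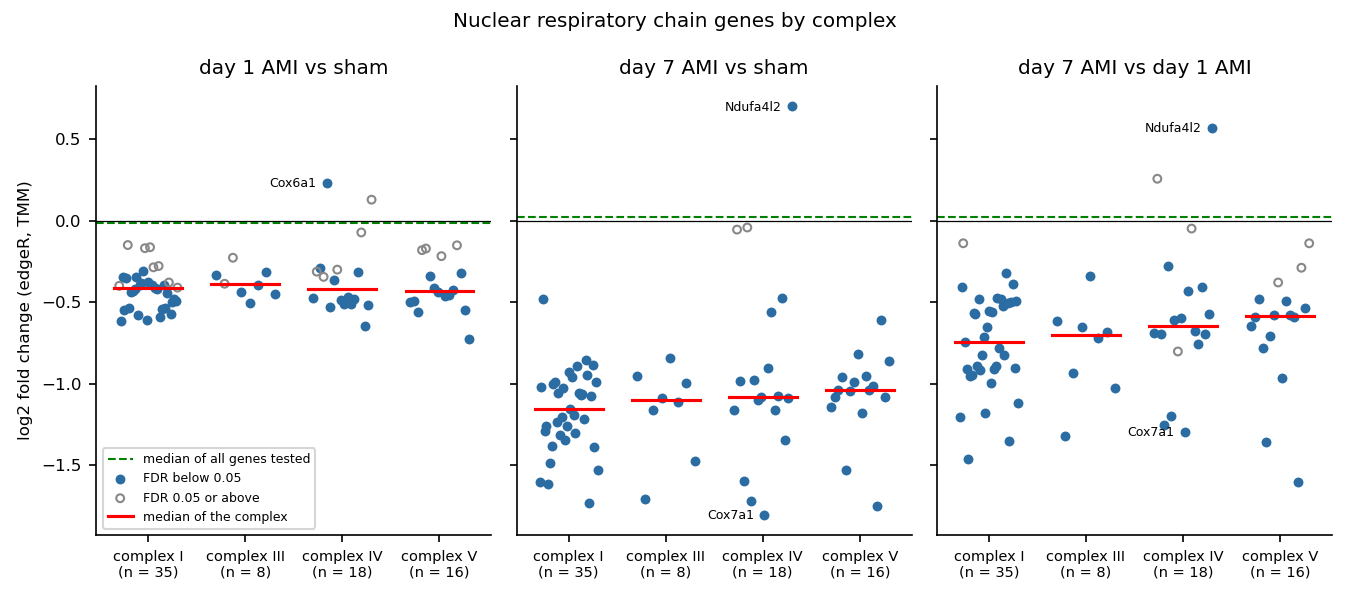
Each point is 1 member tested, placed by complex (x axis) and by its log2 fold change from edgeR under TMM (y axis), for the 3 comparisons, where filled points passed an FDR of 0.05, red bars are medians of the complexes and the dashed line is the median of all genes tested. The day 7 points lie around a median of -1.08, with Ndufa4l2 above 0, and the day 1 points lie mostly below 0. Their day 1 median is above 0 relative to the summed cardiomyocyte markers, where Myh6 weighs most.

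In bulk RNA, fewer cardiomyocytes and less of these transcripts in each cardiomyocyte cannot be told apart. Of the 11 cardiomyocyte markers, which encode sarcomere and calcium-handling proteins, 9 fell on day 1 and 9 on day 7, with medians of -0.53 and -1.05. Their summed level was 81204 to 97606 CPM in sham, 53377 to 65856 CPM on day 1 and 47861 to 55467 CPM on day 7. All 10 leukocyte markers were higher in both AMI groups than in sham, with summed levels of 233 to 345, 547 to 823 and 755 to 1157 CPM. Of 8 fibroblast markers, 6 were higher on day 1 and 8 on day 7, with summed levels of 1092 to 1334, 1745 to 2369 and 8200.1 to 16451 CPM. The summed level of 8 endothelial markers was 901 to 1045, 792 to 836 and 1224 to 1369 CPM, that of 6 atrial markers was 105 to 916, 498 to 1283 and 1276 to 1910.2 CPM, and that of 7 erythroid markers was 491 to 4464, 420.4 to 649 and 241 to 970.0 CPM. None of these markers was at 0 in every library. Nppa held the largest part of the atrial sum, with means of 220 CPM in sham, 875 CPM on day 1 and 1461 CPM on day 7. The atrial markers did not move together, since 1 was lower and 1 higher on day 1, and 1 lower and 2 higher on day 7. Bmp10 was the lower one, at -3.49 and -5.28. Its sham hearts spread widely, at 19.6 ± 31.4 CPM (SD, n = 4), and overlapped those of both AMI groups. The part of the marker shifts in the fall of the members was not tested.

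The size of the fall depended on how the libraries were scaled. In the sum of the cardiomyocyte markers Myh6 weighed most, with a mean of 36082 CPM in sham. The day 1 changes of single markers ran from -0.87 for Myh6 to -0.047 for Actn2, and the members' median of -0.41 lay inside that range. The sign of the members relative to the markers on day 1 therefore depends on the marker taken. Scaled to the summed cardiomyocyte markers, the members' median was 0.20 on day 1, where 0 members were lower and 16 higher, and -0.19 on day 7, where 29 were lower and 7 higher. From day 1 AMI to day 7 AMI the median on that scale was -0.38, with 48 members lower and 2 higher. The medians of all genes on that scale were 0.60 on day 1, 0.91 on day 7 and 0.30 between the AMI days, each above the members' median. With library totals alone, the members' medians were -0.15, -0.68 and -0.53 while those of all genes were 0.26, 0.42 and 0.15, and 13, 69 and 64 members were lower and 2, 3 and 2 higher. Measured from the median of all genes, the members' median ran over all settings tried from -0.46 to -0.36 on day 1, from -1.16 to -1.01 on day 7 and from -0.74 to -0.63 between the AMI days. A change of scaling shifts all genes by nearly the same amount, so it could hardly change this difference, and the narrow range is no check on the scaling. Counts and changes given from here on are under TMM, and on day 1 those of all 8 core subunits named turned their sign relative to the summed cardiomyocyte markers. Each count of genes called lower in a complex or list stands beside 19.9% of all genes on day 1, 28.4% on day 7 and 22.8% between the AMI days.

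**Figure D2:**
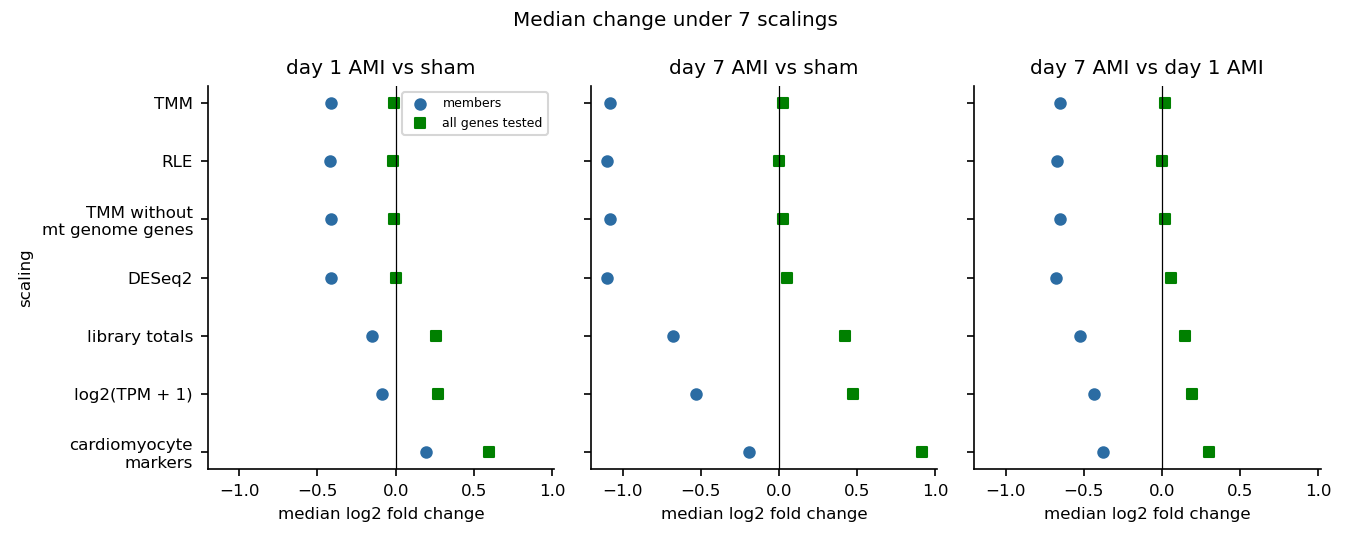
Median log2 fold change (x axis) of the members tested (circles) and of all genes tested (squares) under 7 ways of scaling the libraries (y axis), for the 3 comparisons. The gap between circle and square stays between -1.16 and -1.01 on day 7, while the place of both against 0 moves. A change of scaling shifts all genes by nearly the same amount, so it could hardly change the gap. Scaled to the summed cardiomyocyte markers, the members' median on day 1 is 0.20 and that of all genes is 0.60.

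Complex I core subunits carry the flavin, the iron-sulfur clusters and part of the ubiquinone site. Ndufv1, which binds NADH and the flavin, had 687, 871, 821 and 873 CPM in sham, 559, 535, 569.9 and 668 CPM on day 1 and 331, 280.3, 341 and 291 CPM on day 7. The 3 groups did not overlap. Its log2 fold changes were -0.48 ± 0.10 (SE, adjusted p = 0.00244) on day 1 and -1.39 ± 0.11 (adjusted p = 1.69e-07) on day 7. Ndufs1, the largest iron-sulfur subunit, had 966, 767, 852 and 915 CPM in sham, 543, 513, 581 and 689 CPM on day 1 and 382, 419.8, 458 and 407 CPM on day 7. These groups lay apart too, with changes of -0.59 ± 0.11 (SE, adjusted p = 0.000672) and -1.07 ± 0.11 (adjusted p = 1.56e-06).

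The accessory subunits of complex I surround the core, and many are needed for its assembly and stability. Of 28, 20 were lower on day 1, 28 on day 7 and 27 on day 7 against day 1 AMI. Their log2 fold changes on day 7 ran from -1.73 to -0.48. Ndufa10, a membrane-arm subunit, had 687, 551, 585 and 679.9 CPM in sham, 396, 379.5, 439 and 419.5 CPM on day 1 and 274, 322, 337 and 303 CPM on day 7. The groups lay apart, and its change of -0.61 ± 0.10 (SE, adjusted p = 0.000261) on day 1 was the largest of complex I. At the other end stood Ndufa11, also of the membrane arm, with 284, 282, 308 and 366 CPM in sham, 243, 235, 256 and 243 CPM on day 1 and 209, 214, 246 and 218 CPM on day 7. The AMI days overlapped and lay below sham, and its day 7 change of -0.48 was the smallest of complex I. In TPM its means were 140.1 in sham, 138 on day 1 and 147 on day 7, so the day 7 fall did not appear on that scale. Those of Ndufa10 were 488, 386 and 412 TPM, with day 7 above day 1. In log2(TPM + 1) the day 7 change of Ndufa10 from sham was -0.25 and did not pass (adjusted p = 0.0651).

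Ndufs6, a zinc-binding subunit that joins late in assembly, had the largest day 7 fall of complex I. It had 149, 311, 311 and 209.5 CPM in sham, 194, 174, 167 and 219 CPM on day 1 and 94.7, 56.6, 83.3 and 60.4 CPM on day 7. Sham and day 1 hearts overlapped, while every day 7 heart lay below both groups. The log2 fold change was -1.73 ± 0.22 (SE, adjusted p = 1.41e-05) on day 7 and -0.38 ± 0.22 (adjusted p = 0.174) on day 1, and without sham replicate 1 the day 1 value was -0.56 (adjusted p = 0.0306). Ndufa2, a small subunit of the matrix arm, had 81.8, 252, 255 and 218 CPM in sham, 176, 170.3, 161 and 220.1 CPM on day 1 and 95.2, 46.5, 66.8 and 54.6 CPM on day 7. Sham replicate 1 lay inside the day 7 range, and the other sham hearts lay well above it. The fall of -1.61 ± 0.30 (SE, adjusted p = 0.000307) passed on day 7, as did that of -1.47 ± 0.29 (adjusted p = 0.00106) between the AMI days.

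**Figure D3:**
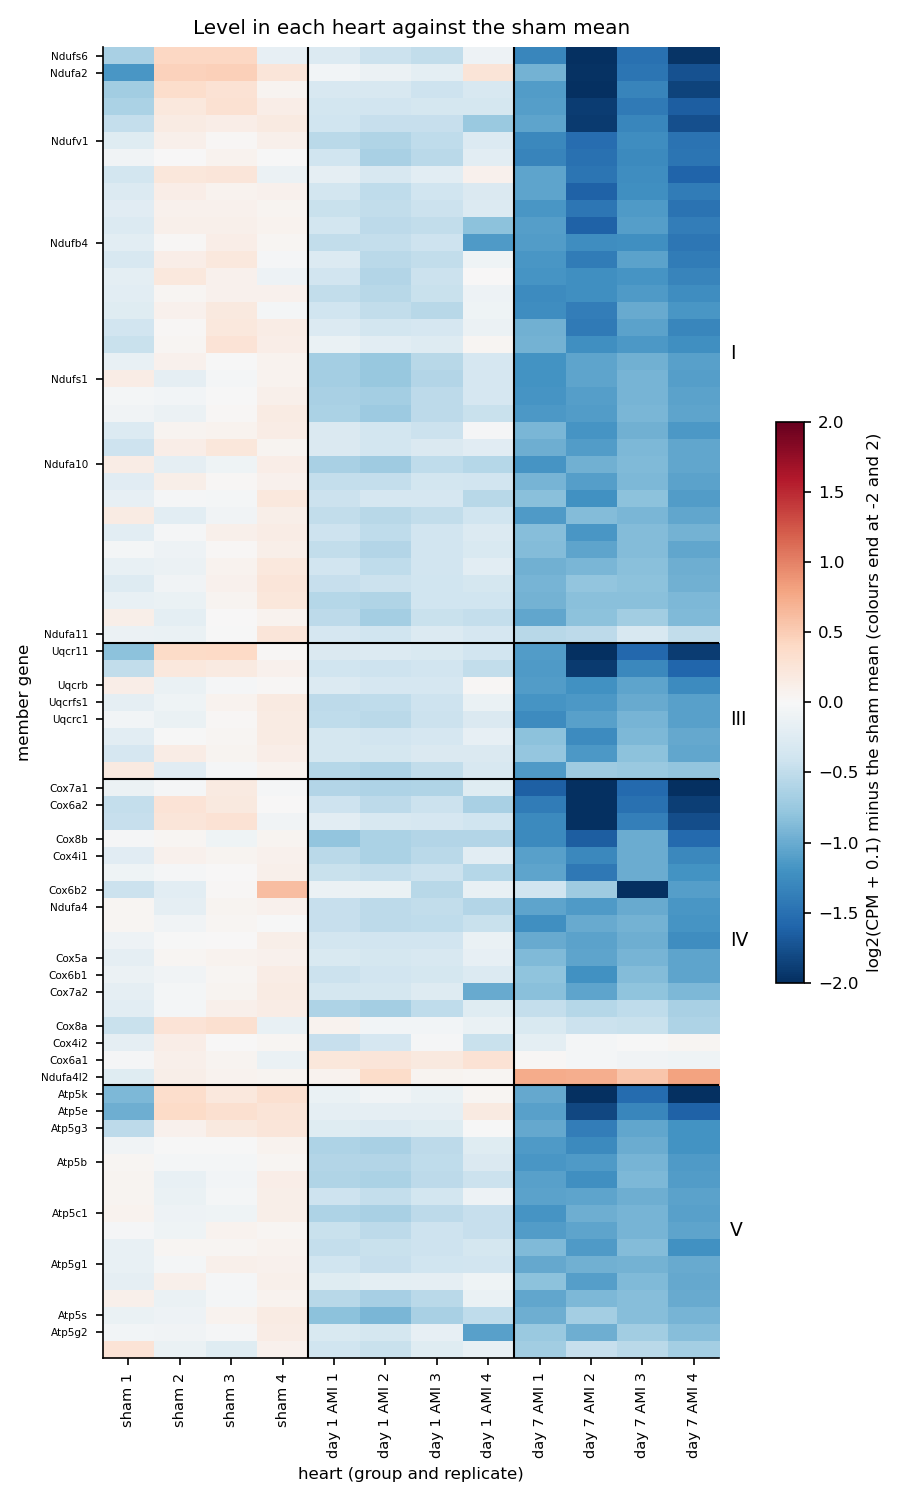
Colours give log2(CPM + 0.1) minus the sham mean for the 77 members tested (y axis, by complex, then by the day 7 change) in each of the 12 hearts (x axis), under TMM, with names at the genes described singly. The day 7 hearts are blue for nearly all members, sham replicate 1 is lower than the other sham hearts for Ndufa2, Uqcr11, Atp5k and Atp5e, and Ndufa4l2 turns red on day 7. Relative to the summed cardiomyocyte markers the members' median on day 1 lies above sham.

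Complex III has core proteins, the Rieske iron-sulfur protein and several small subunits among its nuclear genes. Of 8 genes, 6 were lower on day 1 and 8 both on day 7 and between the AMI days, with medians of -0.39, -1.10 and -0.70. Uqcrc1, a core protein, had 1671, 1577, 1755 and 1937 CPM in sham, 1222, 1197, 1285 and 1419 CPM on day 1 and 727, 816, 904 and 815 CPM on day 7. The 3 groups lay apart. The changes were -0.44 ± 0.10 (SE, adjusted p = 0.00259) and -1.09 ± 0.10 (adjusted p = 5.98e-07). Uqcrfs1, the Rieske protein, had 961, 1026, 1139 and 1231 CPM in sham, 752, 765, 811 and 985 CPM on day 1 and 479.8, 487, 538 and 509 CPM on day 7. Day 1 AMI replicate 4 lay above the lowest sham heart, and the day 7 hearts lay below all others, with changes of -0.39 ± 0.10 (SE, adjusted p = 0.00826) and -1.11 ± 0.11 (adjusted p = 1.04e-06). The small subunits Uqcrb and Uqcr11 were not called on day 1, at -0.23 (adjusted p = 0.0682) and -0.39 (adjusted p = 0.209). By day 7 Uqcr11 had the largest change of the complex, -1.71.

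ATP synthase was described by its parts. In the F1 head, 3 of 5 genes were lower on day 1 and 5 of 5 on day 7. Atp5b had 7023, 6637, 6622 and 6968 CPM in sham, 4518, 4530.4, 4779 and 5564 CPM on day 1 and 3055, 3115, 3562 and 3110.2 CPM on day 7. The 3 groups did not overlap, and the log2 fold changes were -0.49 ± 0.10 (SE, adjusted p = 0.00117) and -1.08 ± 0.10 (adjusted p = 5.81e-07). Atp5c1, the gamma subunit that turns inside the head, had 1226, 1091, 1105 and 1272 CPM in sham, 764, 747, 817 and 849 CPM on day 1 and 519.6, 594, 613 and 553 CPM on day 7. Its groups lay apart as well, and it fell by 0.56 on the log2 scale by day 1 and by 1.04 by day 7. Atp5e, the small epsilon subunit, had 211, 544, 519 and 498 CPM in sham, 368, 368, 367 and 471 CPM on day 1 and 194, 117, 167 and 135 CPM on day 7. Sham replicate 1 lay below every day 1 heart, and the change was -0.17 ± 0.24 (SE, adjusted p = 0.591) on day 1, -1.53 ± 0.24 (adjusted p = 9.51e-05) on day 7 and -1.36 ± 0.24 (adjusted p = 0.000446) between the AMI days. Without sham replicate 1 and day 7 AMI replicate 2, the day 1 value was -0.40 (adjusted p = 0.0281).

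The c ring is built from 1 mature protein encoded by 3 genes, Atp5g1, Atp5g2 and Atp5g3, which differ in their import sequences. Atp5g1 had 1219, 1319, 1445 and 1436 CPM in sham, 1020.2, 986, 1027 and 1034 CPM on day 1 and 664, 692, 701 and 669 CPM on day 7. Its groups lay apart, with log2 fold changes of -0.41 ± 0.078 (SE, adjusted p = 0.000891) and -0.99 ± 0.078 (adjusted p = 2.18e-07). Atp5g3 had 833, 1262, 1365 and 1417 CPM in sham, 1005, 985, 1012 and 1193 CPM on day 1 and 586, 455, 582 and 524 CPM on day 7. Sham replicate 1 lay below the day 1 hearts and the other sham hearts above them. With it the day 1 change was -0.22 (adjusted p = 0.252) and without it -0.36 (adjusted p = 0.0178), and day 7 was lower at -1.18 ± 0.15 (SE, adjusted p = 1.15e-05). Atp5g2, the least abundant of them, had 204, 202, 207 and 233 CPM in sham, 171, 166, 188 and 99.5 CPM on day 1 and 126, 108, 130.1 and 117 CPM on day 7. Day 1 AMI replicate 4 lay below the day 7 hearts, and the change between the AMI days was -0.38 (adjusted p = 0.0516) with it and -0.55 (adjusted p = 0.000334) without it. With all hearts kept it passed under RLE factors at -0.40 (adjusted p = 0.0422), in DESeq2 at -0.40 (adjusted p = 0.0284) and in edgeR without the filter at -0.39 (adjusted p = 0.0314). The day 1 change of -0.44 (adjusted p = 0.0310) did not pass without sham replicate 3 at -0.45 (adjusted p = 0.0513) or sham replicate 4 at -0.39 (adjusted p = 0.0811). Of the 75-base stretches of Atp5g2 transcripts, 35.8% also occur in other genes, so its counts are less certain than those of most members.

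In the stalk and membrane part, 6 of 7 genes were lower on day 1 and 7 of 7 on day 7. Atp5k, the e subunit, which helps ATP synthase form dimers, had 78.3, 185, 169 and 182 CPM in sham, 133, 139, 132 and 149.9 CPM on day 1 and 71.1, 24.7, 50.1 and 36.3 CPM on day 7. Sham replicate 1 lay just above the day 7 range and below every day 1 heart. The change was -0.15 ± 0.28 (SE, adjusted p = 0.692) on day 1, -1.75 ± 0.29 (adjusted p = 0.000132) on day 7, and -1.60 ± 0.29 (adjusted p = 0.000478) between the AMI days. Atp5s, also called coupling factor B, had low levels of 19.2, 19.6, 22.2 and 23.5 CPM in sham, 11.8, 11.1, 13.3 and 14.8 CPM on day 1 and 10.7, 13.1, 11.6 and 11.01 CPM on day 7. Every AMI heart lay below every sham heart, and the AMI days overlapped. It had the largest day 1 fall of all members, -0.73 ± 0.11 (SE, adjusted p = 0.000233), and its change from day 1 to day 7 was -0.14 (adjusted p = 0.332).

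Complex IV has subunits that every tissue uses and isoforms that replace some of them in heart and skeletal muscle. Of the 11 common subunits, 8 were lower and 1 higher on day 1, and 10 were lower on day 7, all but Cox6a1. Cox4i1, a regulatory subunit that binds ATP, had 1371, 1696, 1654 and 1706 CPM in sham, 1108, 1036, 1101 and 1386 CPM on day 1 and 751, 653, 807 and 657 CPM on day 7. The lowest sham heart lay just below the highest day 1 heart, and day 7 lay apart, with changes of -0.47 ± 0.11 (SE, adjusted p = 0.00452) and -1.16 ± 0.12 (adjusted p = 1.41e-06). Cox5a, on the matrix side of the complex, had 650.4, 753, 769 and 779 CPM in sham, 595, 576, 588 and 655 CPM on day 1 and 397, 355, 386 and 354 CPM on day 7. Here too 1 sham heart lay below 1 day 1 heart, and the changes were -0.29 ± 0.084 (SE, adjusted p = 0.0131) and -0.98 ± 0.085 (adjusted p = 4.41e-07).

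The muscle isoforms Cox6a2, Cox7a1 and Cox8b were lower in every comparison under TMM, with medians of -0.53, -1.72 and -1.20, but relative to the cardiomyocyte markers none was called lower on day 1. On that scale the day 1 values were 0.069 for Cox6a2, 0.10 for Cox7a1 and -0.036 (adjusted p = 0.814) for Cox8b. Cox7a1 (chr7:30184144-30186078, GRCm38) had 492, 523, 604 and 526 CPM in sham, 356, 349, 352 and 452 CPM on day 1 and 172, 127, 181 and 133 CPM on day 7. The 3 groups did not overlap, and its day 7 fall was the largest of all members, -1.80 ± 0.13 (SE, adjusted p = 1.08e-07). Cox6a2 had 1151, 1954, 1853 and 1610.4 CPM in sham, 1206, 1121, 1199 and 1031 CPM on day 1 and 610.1, 368, 573 and 436 CPM on day 7. Sham replicate 1 lay within the day 1 range, and the day 7 hearts lay apart at -1.72 ± 0.18 (SE, adjusted p = 1.95e-06). The day 1 change of -0.53 (adjusted p = 0.0243) did not pass when sham replicate 2 or 3 or day 1 AMI replicate 2 or 4 was left out, at adjusted p between 0.0547 and 0.0686. Cox8b had 469.9, 491, 449.9 and 496 CPM in sham, 277, 306, 316 and 318 CPM on day 1 and 197, 151, 239.7 and 163 CPM on day 7, without overlap, and its changes were -0.65 ± 0.12 (SE, adjusted p = 0.000884) and -1.34 ± 0.12 (adjusted p = 7.44e-07).

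**Figure D4:**
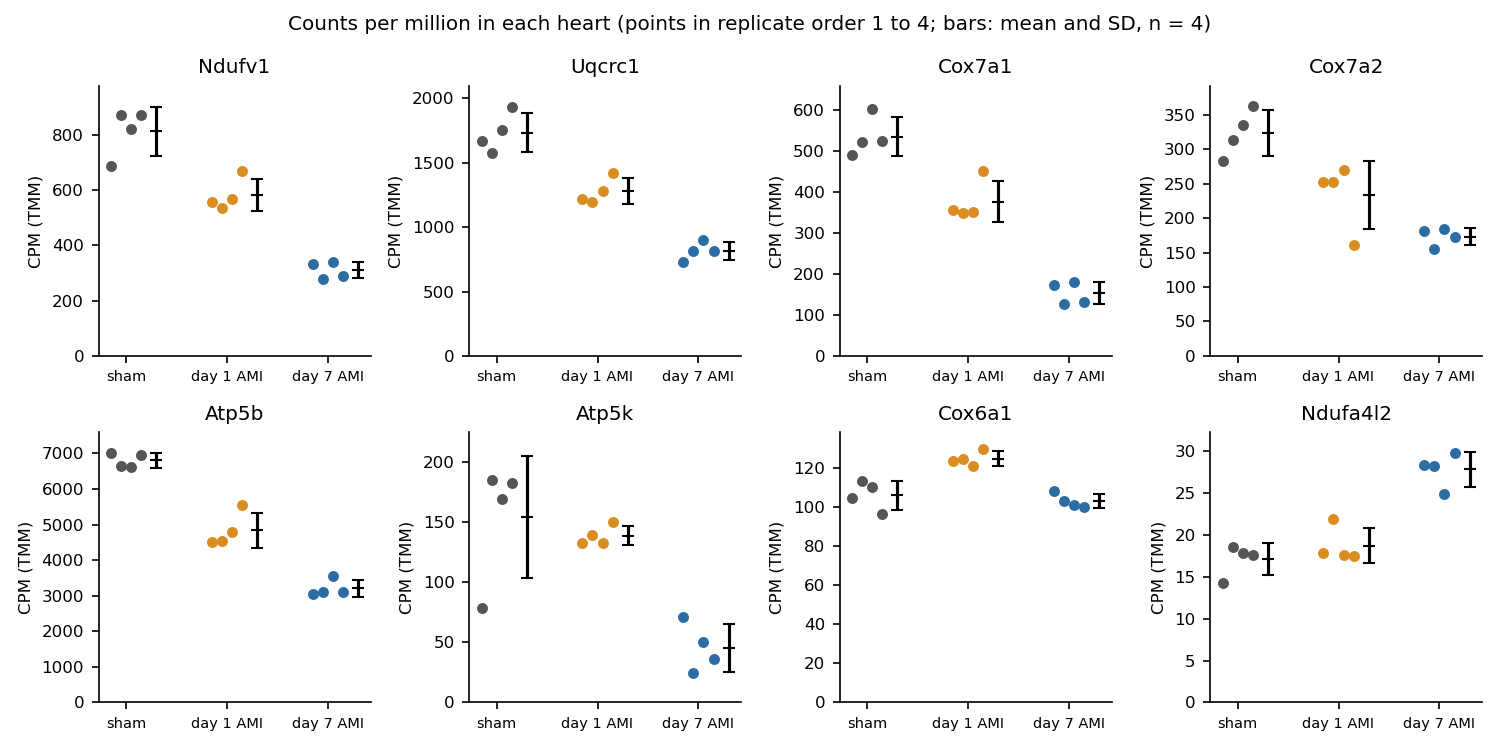
CPM scaled by TMM (y axis, from 0) in each heart for 8 members, with the 4 hearts of each group in replicate order and bars for the mean and SD. Ndufv1, Uqcrc1, Cox7a1 and Atp5b step down from sham to day 1 AMI to day 7 AMI (on day 1 not relative to the summed cardiomyocyte markers), Cox6a1 is highest on day 1, and Ndufa4l2 is highest on day 7 under TMM, where its hearts lie between 24.9 and 29.8 CPM.

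Each muscle isoform has a common partner, which is Cox6a1, Cox7a2 or Cox8a. Cox6a1 (chr5:115345642-115348981) had 104, 113, 110.0 and 96.2 CPM in sham, 124, 124, 121 and 129.7 CPM on day 1 and 108, 103, 101 and 99.9 CPM on day 7. Every day 1 heart lay above every sham heart, and the rise of 0.23 ± 0.069 (SE, adjusted p = 0.0145) passed, but not without sham replicate 4 at 0.19 (adjusted p = 0.0544). Its day 7 change was -0.041 (adjusted p = 0.628) under TMM but 0.35 with library totals alone, 0.49 in log2(TPM + 1) and 0.84 against the cardiomyocyte markers. Cox8a had 89.3, 147, 151 and 109 CPM in sham, 127, 117, 117 and 111 CPM on day 1 and 98.3, 90.3, 89.2 and 78.8 CPM on day 7. Sham replicate 1 lay within the day 7 range, and the changes were -0.072 (adjusted p = 0.703) and -0.48 (adjusted p = 0.00874). The day 7 value was -0.10 (adjusted p = 0.625) with library totals alone, 0.083 in log2(TPM + 1) and, with the sign turned, 0.40 (adjusted p = 0.0408) against the cardiomyocyte markers. Between the AMI days it changed by -0.40 (adjusted p = 0.0273), which did not pass without day 1 AMI replicate 1 or 3 or day 7 AMI replicate 2, 3 or 4, at adjusted p between 0.0508 and 0.0807. Cox7a2 had 283, 313, 335 and 363 CPM in sham, 253, 253, 269 and 160.3 CPM on day 1 and 181, 156, 184 and 173 CPM on day 7. Day 1 AMI replicate 4 stood within the day 7 range for this gene, and the changes were -0.47 ± 0.14 (SE, adjusted p = 0.0141) and -0.90 ± 0.14 (adjusted p = 6.89e-05). That between the AMI days, -0.43 (adjusted p = 0.0190), did not pass without day 1 AMI replicate 1 or 3 or day 7 AMI replicate 2, at adjusted p between 0.0515 and 0.0645.

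A ratio of 2 genes within a heart does not depend on how libraries are scaled. It can depend on the mix of cells, which shifted between the groups. In bulk RNA, a change of isoform within a cell type and a change in that mix cannot be told apart. For 6 isoform pairs the log2 ratio of TPM was compared in each comparison with an exact two-sided permutation test of 4 hearts against 4, whose smallest p is 0.0286. Of the 18 tests, 12 passed after Benjamini-Hochberg adjustment over all 18, each at that smallest exact p (adjusted p = 0.0429). Cox6a2 to Cox6a1 stood at log2 ratios of 3.01, 3.66, 3.62 and 3.62 in sham, 2.83, 2.72, 2.86 and 2.54 on day 1 and 2.05, 1.40, 2.07 and 1.67 on day 7. The 3 groups lay apart, and the muscle isoform stood 11.1 times above the common one in sham, 6.68 times on day 1 and 3.48 times on day 7. The differences from sham were -0.74 ± 0.17 and -1.68 ± 0.22 (SE) and that between the AMI days was -0.94 ± 0.18, and all 3 passed.

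Cox7a1 to Cox7a2 stood at 2.45, 2.41, 2.55 and 2.18 in sham, 2.17, 2.11, 2.06 and 3.14 on day 1 and 1.59, 1.28, 1.57 and 1.28 on day 7. Day 7 lay below both other groups, while day 1 AMI replicate 4, where Cox7a2 was low, lay above all other hearts. The day 7 difference from sham of -0.97 ± 0.12 (SE) passed the exact test. The day 1 difference was -0.028 ± 0.27 (exact p = 0.943), and -0.28 without day 1 AMI replicate 4. Cox8b to Cox8a stood at 4.02, 3.37, 3.26 and 3.79 in sham, 2.77, 2.99, 3.07 and 3.13 on day 1 and 2.62, 2.28, 2.97 and 2.68 on day 7. Every sham heart lay above every AMI heart, with differences of -0.62 ± 0.19 and -0.97 ± 0.23 (SE) that passed the exact test, while the AMI days overlapped, at -0.35 ± 0.16 (exact p = 0.0571, adjusted p = 0.0791).

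**Figure D5:**
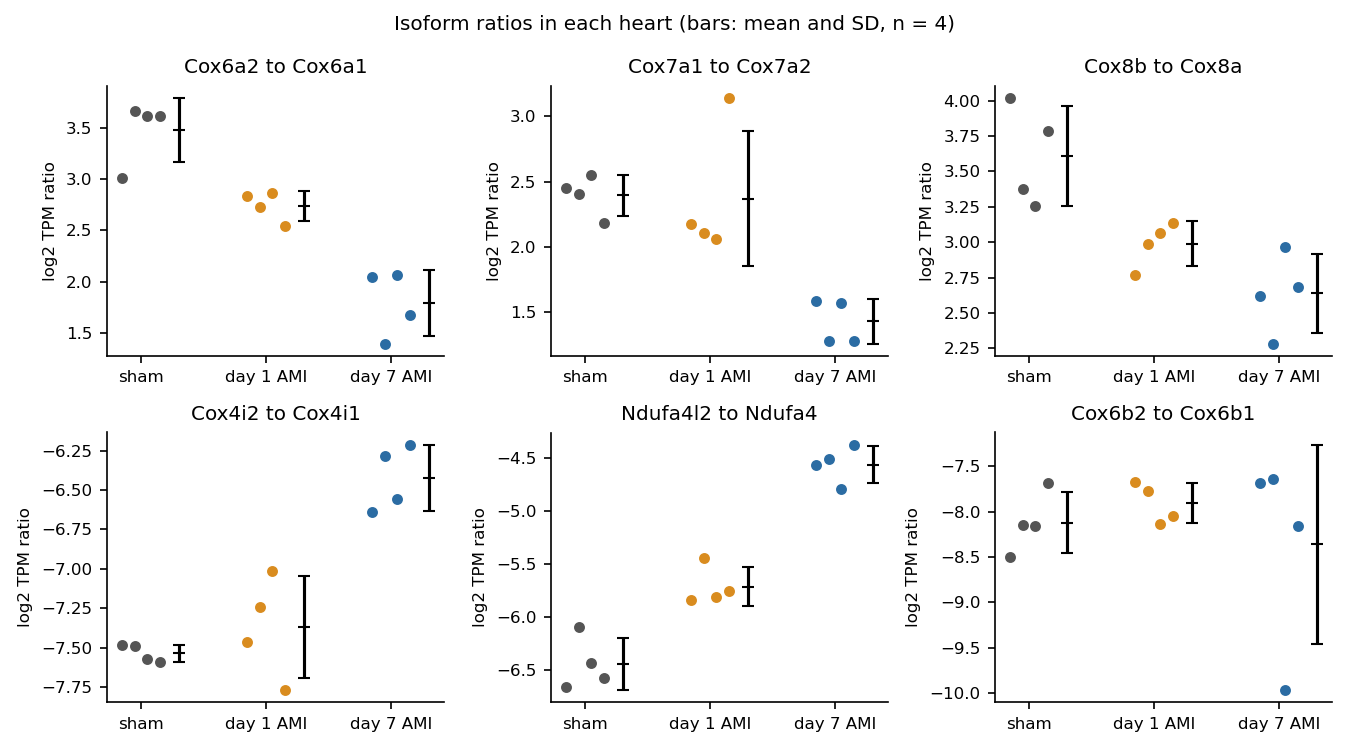
Log2 ratio of the TPM of 2 isoforms (y axis) in each heart for 6 pairs, by group (x axis), with bars for the mean and SD of 4 hearts. Cox6a2 to Cox6a1 goes from a mean of 3.48 in sham to 1.80 on day 7, and Ndufa4l2 to Ndufa4 from -6.44 to -4.56.

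Promoters of the Cox7a and Cox8 pairs are shown because the muscle isoform and its common partner differ in CG dinucleotides, which are frequent in promoters of housekeeping genes. The Cox6a pair could not be compared, since Cox6a2 had no RefSeq promoter window, so the counts stand for the pairs shown only. The sequences are RefSeq's (GRCm38.p6), taken from the 250 bases before the RefSeq start, 5′ to 3′ on the strand of the gene, with each CG in capitals and without bases that GENCODE places inside the gene. They are those of Cox7a1 at chr7:30183921-30184143 (plus strand), Cox7a2 at chr9:79759879-79760103, Cox8b at chr7:140900447-140900696 and Cox8a at chr19:7217617-7217866 (minus strand for these 3).
Cox7a1: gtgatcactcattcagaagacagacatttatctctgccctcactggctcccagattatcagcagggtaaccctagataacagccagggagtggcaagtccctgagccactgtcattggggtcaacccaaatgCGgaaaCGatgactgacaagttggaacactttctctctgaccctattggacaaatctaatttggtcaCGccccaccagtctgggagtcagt
Cox7a2: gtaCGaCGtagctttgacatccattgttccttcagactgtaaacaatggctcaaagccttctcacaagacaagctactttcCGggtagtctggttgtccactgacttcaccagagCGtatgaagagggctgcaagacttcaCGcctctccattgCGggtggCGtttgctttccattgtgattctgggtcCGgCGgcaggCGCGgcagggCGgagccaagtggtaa
Cox8b: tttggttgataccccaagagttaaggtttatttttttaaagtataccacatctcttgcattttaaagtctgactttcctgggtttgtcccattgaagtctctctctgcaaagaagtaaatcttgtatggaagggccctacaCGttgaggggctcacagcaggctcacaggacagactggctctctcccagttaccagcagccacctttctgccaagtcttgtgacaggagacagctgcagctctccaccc
Cox8a: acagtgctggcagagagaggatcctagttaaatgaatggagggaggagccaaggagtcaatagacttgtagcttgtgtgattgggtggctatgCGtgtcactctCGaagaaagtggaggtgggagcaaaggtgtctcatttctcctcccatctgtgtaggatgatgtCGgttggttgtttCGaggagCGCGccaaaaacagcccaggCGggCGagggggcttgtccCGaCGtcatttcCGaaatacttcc
In the full 250 bases, Cox7a1 held 4 CG dinucleotides and Cox7a2 held 14, and Cox8b held 1 and Cox8a 11. The median was 6 over the windows of 27025 genes and 14 over the 65 members with a window. Of the 27025 windows, 44.5% held as few as Cox7a1 or fewer, and 19.4% as few as Cox8b or fewer. These counts describe the sequences, and their relation to the changes was not tested.

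Ndufa4l2, a relative of Ndufa4 known to be induced by hypoxia, was the 1 member called higher by day 7. It had 14.3, 18.6, 17.9 and 17.6 CPM in sham, 17.9, 21.9, 17.6 and 17.5 CPM on day 1 and 28.4, 28.2, 24.9 and 29.8 CPM on day 7. All day 7 hearts lay above all others, and the log2 fold change was 0.70 ± 0.10 (SE, adjusted p = 5.22e-05) against sham and 0.57 ± 0.10 (adjusted p = 0.000469) against day 1 AMI. On day 1 Ndufa4l2 was not called under TMM. It passed as higher on day 1 with library totals alone at 0.40 (adjusted p = 0.0217) and in log2(TPM + 1) at 0.47 (adjusted p = 0.0128). Against the summed cardiomyocyte markers it passed at 0.75 (adjusted p = 0.000915). Ndufa4 itself had 776, 671, 782 and 805 CPM in sham, 550.2, 525, 539.7 and 502 CPM on day 1 and 366, 344, 377 and 339 CPM on day 7. Its groups lay apart in the other direction, and it fell by 0.52 on the log2 scale by day 1 and by 1.09 by day 7. Their log2 ratio was -6.44 ± 0.25 (SD, n = 4) in sham, -5.71 ± 0.18 on day 1 and -4.56 ± 0.18 on day 7. The groups lay apart and all 3 differences passed the exact test. On a linear scale, Ndufa4l2 stood at 0.0115 of the Ndufa4 level in sham and at 0.0423 of it on day 7.

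Cox4i2, a partner of Cox4i1 known from lung, had 7.46, 9.24, 8.48 and 8.65 CPM in sham, 6.11, 6.65, 8.34 and 6.14 CPM on day 1 and 7.39, 8.18, 8.37 and 8.67 CPM on day 7. The groups overlapped and no comparison of the gene passed under TMM, although the day 1 change of -0.31 (adjusted p = 0.0595) passed without sham replicate 1 at -0.37 (adjusted p = 0.0400) or without day 1 AMI replicate 3 at -0.42 (adjusted p = 0.0161). Without day 1 AMI replicate 3 the change between the AMI days also passed, at 0.37 (adjusted p = 0.0266). Its day 7 change was -0.054 under TMM but 0.34 with library totals alone, 0.47 in log2(TPM + 1) and 0.83 against the cardiomyocyte markers. The log2 ratio of Cox4i2 to Cox4i1 was -7.54 ± 0.054 (SD, n = 4) in sham, -7.37 ± 0.32 on day 1 and -6.42 ± 0.21 on day 7. Day 7 lay above both other groups and both differences passed the exact test, and day 1 differed from sham by 0.16 ± 0.16 (SE, exact p = 0.343).

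Cox6b2, a testis isoform, was near the lower limit of these counts with 1.15, 1.35, 1.60 and 2.49 CPM in sham, 1.45, 1.43, 1.05 and 1.42 CPM on day 1 and 1.17, 0.926, 0.258 and 0.680 CPM on day 7. The groups overlapped. The gene was called lower by day 7 at -1.10 ± 0.37 (SE, adjusted p = 0.0180), and did not pass without sham replicate 4 at -0.84 (adjusted p = 0.0732). Between the AMI days it stood at -0.80 (adjusted p = 0.0829), and at -1.10 (adjusted p = 0.0327) without day 7 AMI replicate 1. Its partner Cox6b1, which helps hold complex IV dimers together, had 546, 568, 613 and 660.1 CPM in sham, 440.3, 457, 465 and 490.2 CPM on day 1 and 342, 258, 326 and 288 CPM on day 7, without overlap. The ratio of Cox6b2 to Cox6b1 did not pass in any comparison, with exact p of 0.229, 0.914 and 0.686.

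Letters bound by factors known to act on respiratory genes were searched in the 250 bases before the start, on both strands, for the members and all genes with a window. The NRF1 letters, GCGCA and GCGC with any base between them, occurred in 11 of 65 members (16.9%) and in 4.23% of all genes. CCGGAAG, a core of GABP sites, occurred in 11 of 65 members (16.9%) and in 7.83% of all genes. AAGGTCA, for the estrogen-related receptors, occurred in 5 of 65 members (7.69%) against 4.70%, and AAGATGGC, for YY1, in 1 of 65 (1.54%) against 1.83%. The NRF1 letters were in 6 of 31 windows of complex I, 0 of 5 of complex III, 1 of 14 of complex IV and 4 of 15 of complex V. Each motif was searched on its own, so places that match more than 1 count for each. A match describes the letters only.

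The windows of Cox6a1, called higher on day 1, and of Ndufb4, a complex I accessory subunit, are shown with their NRF1 letters. Ndufb4 was taken for the largest day 7 fall among members with 1 window and an NRF1 match outside the GENCODE gene. Ndufb4 had 102, 119.6, 128 and 121 CPM in sham, 82.8, 84.1, 87.6 and 53.2 CPM on day 1 and 53.9, 49.3, 49.7 and 42.99 CPM on day 7, with log2 fold changes of -0.61 ± 0.14 (SE, adjusted p = 0.00277) and -1.26 ± 0.14 (adjusted p = 3.36e-06). Day 1 AMI replicate 4 lay within the day 7 range, and 17.2% of its 75-base stretches occur in other genes. The RefSeq sequences (GRCm38.p6) are at chr5:115348982-115349208 for Cox6a1 and chr16:37654454-37654618 for Ndufb4, both minus strand, 5′ to 3′, with the NRF1 letters in capitals and without bases that GENCODE places inside the gene, which leaves out other matches of Ndufb4. Left out as well is a GABP match of Cox6a1, 16 bases before its start.
Cox6a1: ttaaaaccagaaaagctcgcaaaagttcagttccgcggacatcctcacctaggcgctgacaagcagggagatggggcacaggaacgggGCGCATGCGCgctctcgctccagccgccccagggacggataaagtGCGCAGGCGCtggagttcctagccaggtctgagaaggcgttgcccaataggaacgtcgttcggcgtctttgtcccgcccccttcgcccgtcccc
Ndufb4: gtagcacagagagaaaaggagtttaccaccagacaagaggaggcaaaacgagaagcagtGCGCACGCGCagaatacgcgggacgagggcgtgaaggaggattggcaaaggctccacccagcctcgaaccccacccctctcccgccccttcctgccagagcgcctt
The matches printed lie 162 and 117 bases before the RefSeq start of Cox6a1 and 191 bases before that of Ndufb4.

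The other genes of the pathway were counted in lists. Succinate dehydrogenase (complex II), which feeds electrons to ubiquinone from the citric acid cycle, had all 4 genes lower in each comparison. Of all genes, 19.9%, 28.4% and 22.8% were called lower. Sdha, the flavin subunit of complex II, stood at -0.51, -1.37 and -0.86. Cytochrome c (Cycs) changed by -0.30 and -0.90 against sham, and cytochrome c1 (Cyc1) by -0.38 and -0.91. Of these and the genes of ubiquinone synthesis, 15 in all, 12 were lower on day 1 and 13 on day 7, beside 19.9% and 28.4% of all genes. The 1 that rose on day 1 was Coq8b, a kinase-like protein of ubiquinone synthesis, at 0.80 (adjusted p = 7.35e-05).

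Assembly factors were called lower on day 1 and day 7 in these numbers: 7 and 14 of 14 for complex I, 3 and 6 of 6 for complex III, 4 and 16 of 19 for complex IV, and 3 and 3 of 3 for ATP synthase, beside 19.9% and 28.4% of all genes. The day 1 count of complex IV factors was near that share. The median over the 19 complex IV factors was -0.12 on day 1 and -0.60 on day 7. Cox19, a factor linked to copper delivery, was the 1 assembly gene that rose on day 1, at 0.76 (adjusted p = 2.61e-05), and stood at 0.12 (adjusted p = 0.232) on day 7. Whether factors and subunits differed in these shares was not tested.

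The subunits encoded in the mitochondrial genome were 13, of which 7 passed the filter. The other 6 (mt-Nd3, mt-Nd4l, mt-Co2, mt-Co3, mt-Atp6 and mt-Atp8) were listed at 0 to 2 counts in every library although these genes are used by every cell, so they carry no level. All 7 were lower on day 1 and on day 7 under TMM, with medians of -0.84 and -0.81. Between the AMI days their median was 0.082, and 0 of 7 were called by edgeR, 0 at an unadjusted p under 0.05. DESeq2 called 0 of 9 listed genes, adjusted or not, but these include mt-Co3 and mt-Atp6, whose 0 to 2 counts could not give a call. mt-Co1, a catalytic subunit of complex IV, changed by -0.77 and -0.81 against sham and by -0.036 (adjusted p = 0.881) between the AMI days. The nuclear Cox4i1 changed by -0.69 (adjusted p = 0.000246) between the same days. The difference between nuclear and mitochondrial genes was not tested.

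The members lie on 19 chromosomes, with a median of 1495 bases of merged exon and a median GC content of 52.5%. Across the 77 members tested, as a description over genes that share their libraries, the day 7 log2 fold change had a Spearman correlation of -0.37 with the mean TPM in sham, 0.24 with exon length and -0.046 with GC content.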

How the data were processed

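RNA of whole hearts from 4 sham, 4 day 1 AMI and 4 day 7 AMI mice was sequenced as 150-bp paired-end reads. Following the study's methods, the authors trimmed reads with Cutadapt and aligned them with STAR 2.4.0j to Ensembl GRCm38 (mm10 in the submitters' processing notes). The authors deposited raw counts, whole numbers of reads per gene without normalization, and TPM per gene, estimated with RSEM. The tool and the strand setting behind the counts are not given in the sources used here. Libraries held 23204551 to 32166517 counts. Groups came from the labels, 0 columns of per-sample values were left unused, and p-values measure the spread between the 4 libraries of a group, which the labels number as replicates without further detail.

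The members, lists and pairs were chosen with earlier results of these data known. Counts were fitted with edgeR 4.0.16 in R 4.3.3 (TMM, filterByExpr by group, quasi-likelihood test, 1 fit of 12 libraries, Benjamini-Hochberg over 15306 genes). Adjusted p-values come from this fit unless an exact test is named, and standard errors are the log2 fold change over the root of its F statistic. Isoform ratios used log2 of TPM + 0.1 and exact permutations (SciPy 1.17.1). Alternatives were RLE factors, library totals, TMM without mitochondrial genome genes, scaling to cardiomyocyte markers, DESeq2 1.42.0, limma 3.58.1 on log2(TPM + 1) and log2(TPM + 0.1), no filter, only the groups compared, a replicate block, and leaving out each heart. A fit without sham replicate 1 and day 7 AMI replicate 2 was chosen after seeing the data. Scripts were tested on simulated data. A result on complex I is not reported here.

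Values in every heart were given for 8 core subunits, both genes of 6 isoform pairs, the c subunit genes, and in each comparison the 3 largest rises and falls among members that passed with a mean of at least 1 TPM in a group. Ndufa11, Ndufb4, Uqcrb, Uqcr11, Coq8b and Cox19 were named after their values were seen. All 79 members had an identifier in GENCODE M21, which gave exons and GC content, and 65 matched a RefSeq promoter window. A floor of 3 counts was 0.0933 to 0.129 CPM, for counting error only. Between libraries of 1 group the chi-square per degree of freedom was at least 9.41, so none repeated another.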

Additional observations from a re-analysis of the deposited data

Results flagged for a closer look

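In 18 of 120 groups of 4 values (15%), 1 heart stood farther from the others than Dixon's 95% critical value for 4 samples allows, where chance gives about 1 in 20. Genes share their libraries, so these are not independent.

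Sham replicate 1 was the lone low heart for Cox4i1 at 1371 CPM, Atp5k at 78.3 CPM, Ndufa2 at 81.8 CPM and Atp5e at 211 CPM, and for the log2 ratio of Cox6a2 to Cox6a1 at 3.01. Its GC-rich genes were also the lowest of the sham hearts, and the part of base composition in these values was not tested.

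Day 1 AMI replicate 4 was the lone high heart for Cox7a1 at 452 CPM, Atp5g3 at 1193 CPM and Atp5e at 471 CPM, and the lone low heart for Cox7a2 at 160.3 CPM. Its log2 ratio of Cox7a1 to Cox7a2 was 3.14. It held more of the TPM than the other day 1 hearts for all members at 12.4%, complex III at 1.49%, complex IV at 3.49% and complex V at 4.55%.

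Other lone hearts were day 7 AMI replicate 3 for Atp5b at 3562 CPM, sham replicate 4 for Atp5g2 at 233 CPM and day 1 AMI replicate 2 for Ndufa4l2 at 21.9 CPM, all high, and day 1 AMI replicate 3 for Cox6b2 at 1.05 CPM, which was low.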

How the results depend on the processing

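Under RLE factors, TMM without mitochondrial genome genes, DESeq2, no filter, only the groups compared and the replicate block, the counts of members called stayed within 1.5 times those reported. Scaling by library totals alone gave 13 members lower and 2 higher in day 1 AMI, 3 higher, 12 lower at 2-fold and 1 higher at 2-fold in day 7 AMI, and 2 higher between the AMI days. Limma gave for both log2(TPM + 1) and log2(TPM + 0.1) 6 lower and 2 higher, then 3 higher, 10 lower and 1 higher at 2-fold, and 2 higher. Scaling to cardiomyocyte markers gave 0 lower and 16 higher, then 29 lower, 7 higher, 0 lower and 1 higher at 2-fold, and between the AMI days 2 higher and 6 lower at 2-fold. Under these 3 settings (with log2(TPM + 1) for limma) the medians of all genes in day 7 AMI were 0.42, 0.47 and 0.91. The differences of the isoform ratios between groups kept their sign and their side of the threshold with TPM + 1 and with CPM. The ratios themselves stood at other levels in CPM, where Cox7a1 to Cox7a2 had a mean of -0.19 on day 7, against 1.43 in TPM. Without any 1 heart the differences stayed within the spread between replicates, and these were values with no test.

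Leaving out 1 heart, the members lower numbered 46 to 67 in day 1 AMI, 73 to 74 in day 7 AMI and 67 to 70 between the AMI days. The members higher numbered 0 to 1 in day 1 AMI, 0 without sham replicate 4, and 1 to 2 between the AMI days, 2 without day 1 AMI replicate 3. At 2-fold, 47 to 58 were lower in day 7 AMI and 11 to 17 between the AMI days.

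The replicate numbers did not pair the hearts, since correlations of same-numbered hearts ran from -0.244 to 0.229 and 4 of 12 correlated best with their own number. With the replicate number as a block, 51, 74 and 69 members were lower in the 3 comparisons. A sign-flip test of 4 same-numbered differences was not run, since it could not pass 0.05.

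Each log2 fold change of a gene named by rule was checked under each alternative, and each such check counts once. In 66 checks the sign turned, in 96 it was kept but the change did not pass, and in 22 it was kept and the change newly passed. The other 1412 checks stayed on the same side. A fold change can count under several alternatives, so these are not numbers of fold changes. Scaling to cardiomyocyte markers alone turned the sign of 31. Scaled to cardiomyocyte markers the signs turned in day 1 AMI for Ndufv1 0.12, Ndufs1 0.026, Uqcrc1 0.18, Uqcrfs1 0.22, Cox4i1 0.13, Cox5a 0.32, Atp5b 0.12, Atp5c1 0.050, Cox6a2 0.069, Cox7a1 0.10, Cox7a2 0.15, Cox8a 0.53, Cox4i2 0.29, Ndufa4 0.10, Cox6b2 0.32, Cox6b1 0.25, Atp5g1 0.20, Atp5g2 0.18, Atp5g3 0.39, Ndufa10 0.0016, Atp5k 0.45, Ndufs6 0.21, Ndufa2 0.44, Atp5e 0.42. They turned in day 7 AMI for Cox6a1 0.84, Cox8a 0.40, Cox4i2 0.83, Atp5g2 0.071, Atp5s 0.028, and between the AMI days for Cox6a1 0.0014, Atp5s 0.14. In log2(TPM + 1) they turned in day 1 AMI for Cox5a 0.030, Cox8a 0.28, Cox4i2 0.00038, Cox6b2 0.15, Atp5g3 0.13, Atp5k 0.26, Ndufa2 0.29, Atp5e 0.23, in day 7 AMI for Cox6a1 0.49, Cox8a 0.083, Cox4i2 0.47, and between the AMI days for Atp5s 0.039, Ndufa10 0.088. In log2(TPM + 0.1) the values were Cox5a 0.030, Cox8a 0.28, Cox4i2 0.00057, Cox6b2 0.17, Atp5g3 0.13, Atp5k 0.26, Ndufa2 0.29, Atp5e 0.23 in day 1 AMI, Cox6a1 0.49, Cox8a 0.083, Cox4i2 0.49 in day 7 AMI, and Atp5s 0.042, Ndufa10 0.088 between the AMI days. With library totals alone they were Cox8a 0.18, Atp5g3 0.044, Atp5k 0.10, Ndufa2 0.10, Atp5e 0.080 in day 1 AMI and Cox6a1 0.35, Cox4i2 0.34 in day 7 AMI. The day 1 value of Cox8a ran from -0.20 to 0.035 when 1 heart was left out, turning its sign without sham replicate 2 and 3. The cause of changes in single genes was not tested. The counts at 3 per library set a floor of 0.0933 to 0.129 CPM, which limits Cox6b2 and the 2 members that were not tested.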
